A study of Rattus norvegicus with 14 samples.

Results

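Isolated regions were captured regions on chromosomes 1 to 20 that lay 30000 bp or more from the nearest listed region on both sides. They numbered 3142 of 310070 regions in the Methyl-Seq count table, or 1.01%, and 294637 of all regions lay on chromosomes 1 to 20. The choice among listed regions used position alone and no tag count. The list itself holds regions where pairs of these animals differed, merged over the pairs, so that tags and lengths depend on how it was made. Gaps are distances to other listed regions and not to all captured DNA. Regions are named here by their RN4 coordinates as listed, with lengths taken as end minus start, and the table does not state whether starts are counted from 0 or 1. Genes, exons, CpG content and sequence of RN4 were not analysed here.

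DNA came from the dorsal hippocampus of 14 male Wistar rats, and each rat gave 1 library. CTRL animals (n = 5) received methyl scopolamine and saline. PILO animals (n = 4) received methyl scopolamine and pilocarpine at 340 mg/kg, a muscarinic receptor agonist that induces status epilepticus, and ate a standard diet. PILO + KD animals (n = 5) received the same injections and were fed a ketogenic diet immediately after status epilepticus. They thus differed from CTRL in both pilocarpine and diet. Monitoring lasted 84 days. Rats with no status epilepticus after the first injection could receive another, smaller dose, status epilepticus was ended with diazepam, and the labels do not say which rats received it. No group received the ketogenic diet without pilocarpine, so that the effect of the diet alone cannot be told apart from its effect in epileptic rats.

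In mammalian DNA, methyl groups are carried mainly by cytosines that precede a guanine (CpG sites), and most of these sites are methylated outside CpG islands. In Methyl-Seq, beads coated with a protein that binds methylated CpG sites pull down sheared DNA, and fragments with several methylated CpG sites are retained best. A tag is a sequenced end of such a fragment, so that the number of tags in a region depends on the number of methylated CpG sites there as well as on depth. The tissue was a mixture of cell types, and a change in methylation within cells and a change in the mix of cells cannot be told apart in these counts. DNA counts hold no expression markers with which to check the label of the tissue.

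The libraries held between 6972700 and 12391666 tags in all regions, of which 116192 to 181963 fell in isolated regions. Counts were scaled to counts per 1000000 tags (CPM) with the trimmed mean of M-values (TMM), and a single tag was worth between 0.0822 and 0.154 CPM. A count of 0 in an animal allowed a level of up to between 0.247 and 0.462 CPM (3 tags), a limit that covers counting error only. Flow cell here means the number after FC in the labels. Replicate 4 of PILO + KD stood apart in the isolated regions and was the only one of the 14 libraries with its flow cell number. Results that rest on this replicate are given with and without it below.

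Isolated regions were longer and held more tags than the other regions on chromosomes 1 to 20. Their median length was 663 bp (interquartile range 414 to 986), compared with 563 bp (401 to 781) for the others and 584 bp for the 80550 regions in crowded stretches, which were windows of 100 kb with 25 or more regions. Tags summed over the 14 animals had a median of 278 (64 to 881) in isolated regions, 124 (55 to 379) in the other regions and 135 in the crowded windows. Per length, the median was 29.9 tags per kb and animal in isolated regions and 16.1 in the others. The ratio of tags per kb in all isolated regions to tags per kb in all other regions was between 1.27 and 1.73 (median 1.43), and it was above 1 in 14 of 14 animals. Isolated regions thus made up 1.15% of the listed base pairs (2341877 bp) and held 1.55% of all tags (2009906).

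Both measures changed with distance to the nearer neighbour, and the change set in before the limit of 30000 bp was reached. Median summed tags were 135 where the neighbour was closer than 500 bp and 115 at 5000 to 10000 bp. They were 143 at 10000 to 20000 bp and 207 at 20000 to 30000 bp. Among the isolated regions, the median was 264 tags in the 2521 regions at 30000 to 50000 bp and 326 tags in the 621 regions at 50000 bp or more. Median length followed the same order, with 549 bp at 5000 to 10000 bp, 625 bp at 20000 to 30000 bp, 651 bp at 30000 to 50000 bp and 709 bp beyond. The quartiles of neighbouring classes overlapped widely. No test was made across regions, since neighbouring regions of the same chromosome are not independent.

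**Figure D1:**
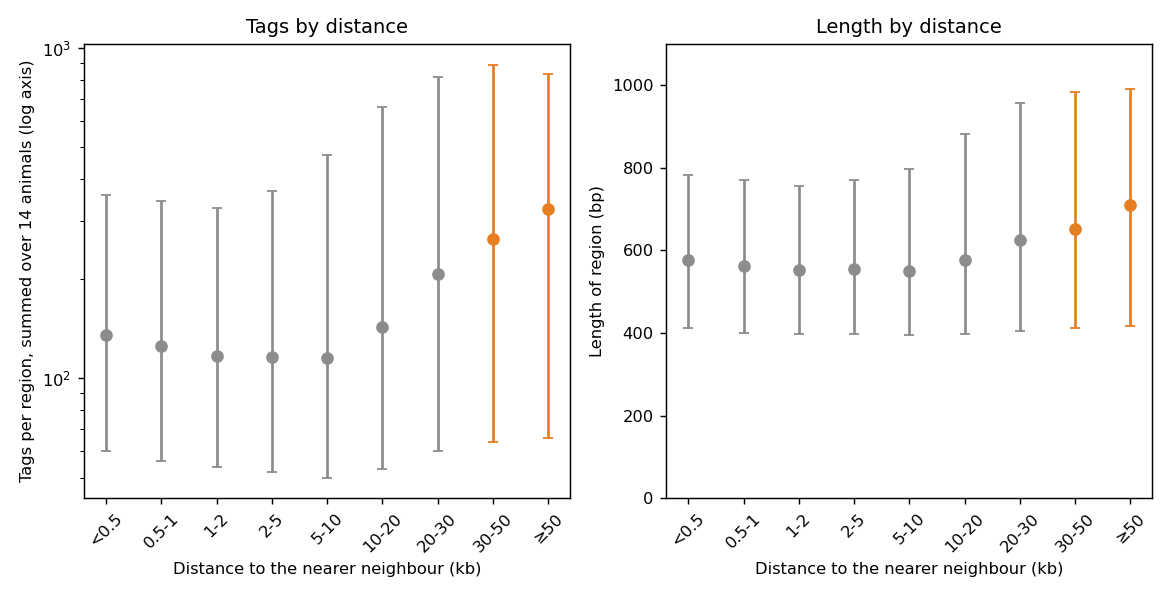
Median (points) and quartiles (bars) of summed tags (left, log axis) and of length in bp (right) for regions on chromosomes 1 to 20, by distance in kb to the nearer neighbour, with isolated regions in orange. Median tags were 115 at 5 to 10 kb and 326 at 50 kb or more.

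The tags of isolated regions were spread over a low and a high class. One group of regions lay between 39 and 99 summed tags, where classes of equal width on a log scale held 335 and 324 regions. The other lay between 630 and 999 tags, with 426 regions, and fewer regions (194) lay between 157 and 250. The other regions had a single peak, between 39 and 99 tags. Regions with 400 or more summed tags made up 44.7% of the isolated regions (1404 of 3142) and 24.1% of the others. Regions with 50 to 199 tags made up 27.1% and 40.0%.

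**Figure D2:**
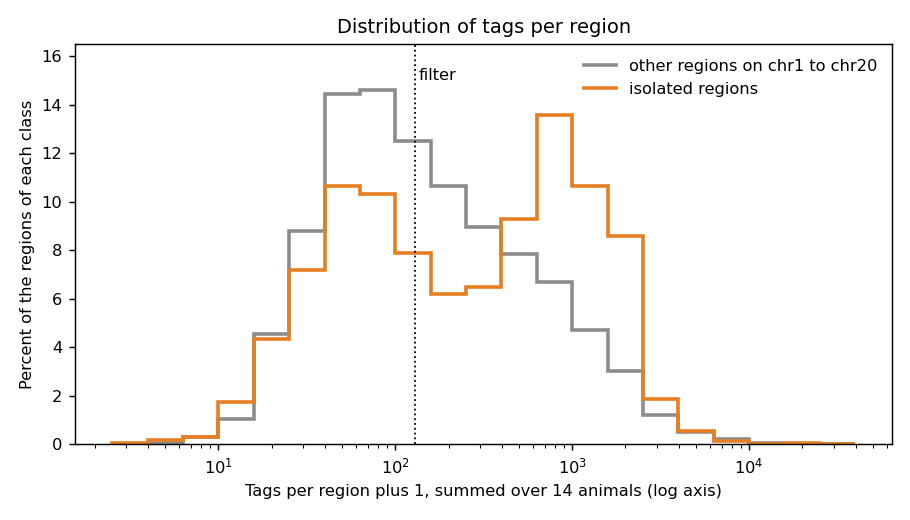
Percent of isolated regions (orange) and of other regions on chromosomes 1 to 20 (grey) in classes of summed tags plus 1 (log axis). The dotted line marks the filter at 129 tags, and the isolated regions show another peak at 630 to 999 tags with 426 regions.

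The low and the high class of isolated regions also differed in length. Of the 804 isolated regions of 300 to 500 bp, 10.7% passed the filter of 129 summed tags (the 50th centile of all regions), and their median was 56 tags. Of the 725 isolated regions of 700 to 1000 bp, 97.8% passed, with a median of 618 tags. Other regions of the same lengths had medians of 55 and 394 tags, so that the 2 kinds of region differed among the longer ones and hardly among the shorter ones. In the class of 1000 to 1500 bp, which held 19.8% of the isolated regions and 9.66% of the others, the medians were 1355 and 959 tags. In all, 1891 of the 3142 isolated regions (60.2%) passed the filter and were tested, and 1251 did not. Among the other regions on chromosomes 1 to 20, 49.1% passed. A count of 0 in at least 1 animal was found in 764 isolated regions (24.3%) and in 29.7% of the others.

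Isolated regions were unevenly distributed over the chromosomes. Chromosome 2 held 429, or 1.90% of its regions and 16.6 per 10 Mb, and chromosome 5 held 281, or 16.2 per 10 Mb. Chromosome 12 held 7, or 0.0669% of its regions and 1.496 per 10 Mb. Chromosome 12 had the most listed regions per 10 Mb (2238) and chromosome 2 the fewest (877). Chromosomes 10 and 19 held 62 and 34 isolated regions, 5.60 and 5.74 per 10 Mb. The 34 regions of chromosome 19 had the highest median of summed tags (552.5), and the 62 regions of chromosome 10 had the lowest (130.5).

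**Figure D3:**
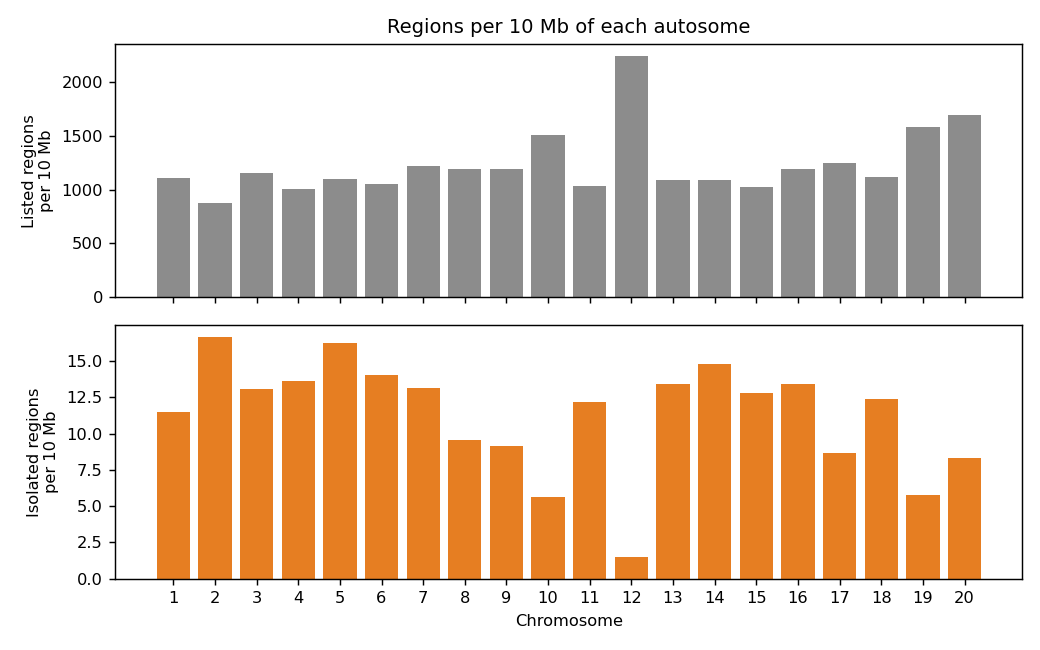
Listed regions per 10 Mb (top, grey) and isolated regions per 10 Mb (bottom, orange) on each autosome, with length taken as the end of the last listed region. Chromosome 12 had 2238 listed and 1.496 isolated regions per 10 Mb, and chromosome 2 had 877 and 16.6.

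Along the chromosomes the isolated regions lay in stretches. Of 522 windows of 5 Mb, 86 held no isolated region and 51 held 15 or more. These 51 windows held 945 isolated regions, or 30.1%. The window of chromosome 7 from 80 to 85 Mb had 30 isolated regions among 164 listed, the windows of chromosome 3 from 80 to 85 Mb and of chromosome 5 from 85 to 90 Mb had 27 each, among 157 and 164. Runs of consecutive listed regions that were all isolated accounted for 1400 isolated regions (44.6%), in 582 runs, and the longest run had 8. The other 1742 isolated regions had no isolated region as direct neighbour in the list. The smaller of a region's gaps had a median of 38068 bp, and it was 100000 bp or more in 23 regions.

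Near the limit itself, the region chr5:56958765-56960069 with a smaller gap of 30004 bp held 1511 summed tags, and chr17:97167434-97168299 with 30009 bp held 530. Just outside, chr11:9453625-9454665 with 29998 bp held 1580 tags and chr3:3185343-3185852 with 29994 bp held 77.

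The most isolated region was chr2:67221630-67222351, 721 bp long, with 170370 bp to the previous and 185920 bp to the next region. Its level was 3.08, 2.24, 3.09, 3.29 and 3.05 CPM in the 5 CTRL animals, 2.52, 3.21, 2.47 and 2.77 CPM in the 4 PILO animals (replicates 2 to 5), and 3.16, 4.32, 3.28, 2.87 and 2.97 CPM in the 5 PILO + KD animals. The groups overlapped, with means of 2.95 ± 0.409 (SD, n = 5), 2.74 ± 0.338 (n = 4) and 3.32 ± 0.58 CPM (n = 5). Next by this measure was chr1:74834538-74835699, 1161 bp long, with gaps of 139315 and 141339 bp. It had means of 5.40 ± 0.692 CPM in CTRL, 5.85 ± 1.70 in PILO and 5.58 ± 1.88 in PILO + KD. Its highest value, 8.85 CPM, belonged to replicate 4 of PILO + KD, whereas the other 4 animals of that group lay between 4.03 and 5.20 CPM.

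Long isolated regions held the most tags. The region chr18:38704328-38709258 was 4930 bp long, lay 166938 and 94726 bp from its neighbours and held 43977 summed tags, the most of any isolated region. Its level in CTRL was 355, 301, 283, 415 and 369 CPM, in PILO 404, 295, 484 and 399 CPM, and in PILO + KD 437, 292, 311, 425 and 405 CPM. The group means of 345 ± 53.5, 395 ± 77.5 and 374 ± 67.4 CPM differed by less than the spread within the groups. The longest isolated region was chr4:150587186-150595918, with 8732 bp and 20731 summed tags. Its levels ran from 109 to 215 CPM in CTRL, from 114 to 219 CPM in PILO and from 105 to 270 CPM in PILO + KD, a coefficient of variation over the 14 animals of 30.7%. Next in level was chr13:19227901-19231415, with 143 ± 21.7 CPM in CTRL, 163 ± 34.1 in PILO and 157 ± 30.4 in PILO + KD.

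The 2 isolated regions picked for the smallest variation between rats held 1281 and 1640 summed tags, above the median of 735 of all tested isolated regions. Among the 685 isolated regions with at least 50 tags in every animal, chr1:91945601-91946527 had the smallest coefficient of variation, 7.46%. It had 10.7, 9.06, 10.3, 10.9 and 10.1 CPM in CTRL, 9.47, 10.6, 11.4 and 10.1 CPM in PILO, and 11.9, 10.6, 11.6, 10.4 and 11.1 CPM in PILO + KD. The values of the 3 groups overlapped. Next was chr8:14062355-14063075 with 7.47% and 14.03 ± 1.06 CPM in CTRL, 13.6 ± 1.09 in PILO and 13.3 ± 1.00 in PILO + KD. Over all 1891 tested isolated regions the median coefficient of variation was 19.6%, compared with 26.4% over all 155092 tested regions. Within classes of equal tags the difference was smaller. It was 33.0% and 34.9% at 129 to 400 summed tags, 20.8% and 22.6% at 400 to 800, 16.8% and 18.2% at 800 to 1600, and 15.3% and 15.8% at 1600 or more.

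The share of an animal's tags that fell in isolated regions did not separate the groups. It was 1.46, 1.45, 1.53, 1.64 and 1.65% in CTRL replicates 1 to 5, with a mean of 1.54% ± 0.0954 (SD, n = 5). PILO replicates 2 to 5 had 1.55, 1.44, 1.67 and 1.59%, a mean of 1.56% ± 0.0958 (n = 4). PILO + KD replicates 1 to 5 had 1.54, 1.39, 1.42, 1.84 and 1.61%, a mean of 1.56% ± 0.179 (n = 5), and the lowest and the highest of the 14 animals were both in this group. The 95% Wilson intervals of these extremes, 1.381 to 1.396% in replicate 2 and 1.83 to 1.84% in replicate 4, cover counting error only. Without replicate 4 of PILO + KD the mean of that group was 1.49% ± 0.102 (n = 4). Within the flow cell that held the most libraries, the means were 1.54% in CTRL (n = 3), 1.55% in PILO (n = 3) and 1.41% in PILO + KD (n = 2). Another flow cell held 1 library of each group, with 1.65% in CTRL, 1.59% in PILO and 1.61% in PILO + KD.

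Replicate 4 of PILO + KD had the highest CPM of all 14 animals in 781 of the 1891 tested isolated regions (41.3%), compared with 13.4% of all tested regions. Of the 1404 isolated regions with 400 or more tags it was highest in 712 (50.7%), compared with 20.9% of all regions with as many tags. The share rose with distance to the nearer neighbour. It was 7.09% below 1000 bp, 8.58% at 1000 to 5000 bp, 21.7% at 5000 to 10000 bp, 31.3% at 10000 to 20000 bp and 38.1% at 20000 to 30000 bp. The median deviation of this animal from the mean of the 14 was 0.31 on the log2 CPM scale in isolated regions and -0.11 in regions with a neighbour closer than 1000 bp. Replicate 2 of PILO + KD ran the other way, with -0.19 in isolated regions and 0.09 in regions with a neighbour closer than 1000 bp, and it was the lowest animal in 380 of the 1891 (20.1%). A fall with distance was also seen in PILO replicate 3 (0.12 to -0.15) and PILO + KD replicate 3 (0.09 to -0.15). CTRL replicates 1 and 2 fell too, to -0.12 and -0.11. Levels rose in CTRL replicates 4 and 5, PILO replicates 2, 4 and 5 and PILO + KD replicates 1 and 5. Rises and falls thus occurred in all groups. The share of tags in the crowded windows was lowest in replicate 4 (17.2%) and highest in replicate 2 (21.8%) of PILO + KD. As replicate 4 was the only one of the 14 libraries with its flow cell number, this rat and its flow cell cannot be told apart.

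**Figure D4:**
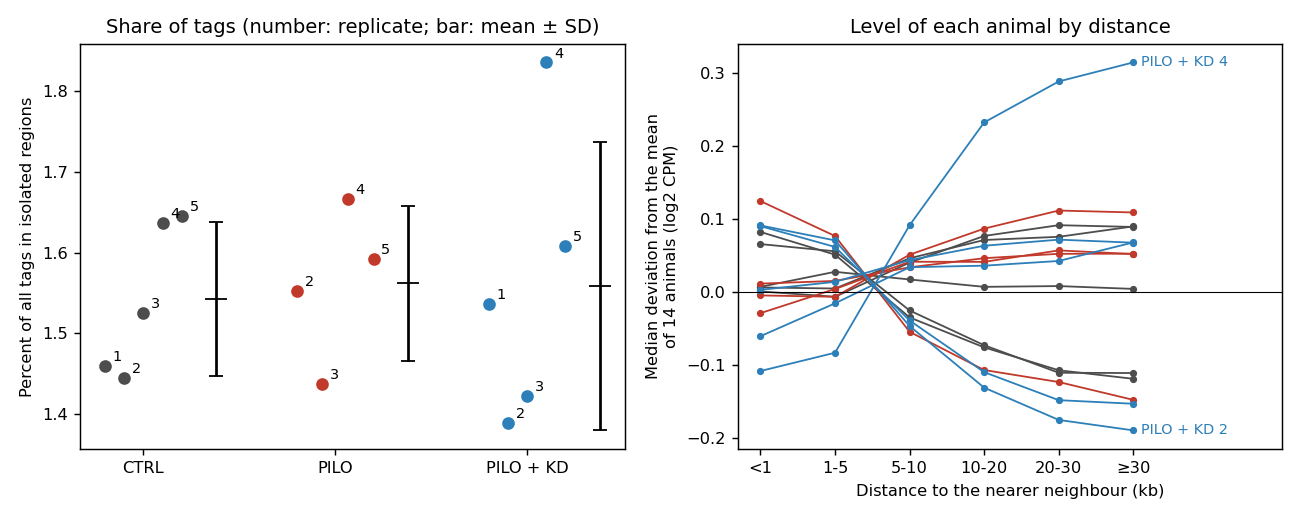
Left, percent of each animal's tags that lay in isolated regions, by group (number: replicate, bar: mean ± SD). Right, median deviation of each animal from the mean of all 14 animals (log2 CPM) over tested regions, by distance in kb to the nearer neighbour, with lines in the colours of the groups. PILO + KD replicate 4 rose from -0.11 to 0.31 and PILO + KD replicate 2 fell from 0.09 to -0.19.

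To ask whether isolated regions gained or lost captured DNA in chronic epilepsy, all 155092 regions that passed the filter were fitted together with the quasi-likelihood test of edgeR, and regions with p below 0.01 before adjustment were counted, the threshold used in the study. In PILO versus CTRL, 9 of the 1891 tested isolated regions passed, or 0.476%, compared with 1.19% of all tested regions. Of these, 5 were higher (0.713% of all tested regions) and 4 were lower (0.482%). No isolated region had a Benjamini-Hochberg adjusted p below 0.05 in edgeR, compared with 0.00387% of all tested regions. The lowest in edgeR was 0.692, and the lowest was 0.766 in the Wald test of DESeq2 and 0.82 in limma-voom. An unadjusted p below 0.05 was reached by 31 (1.64%), compared with 5.13% of all tested regions. Values of the 2 groups did not overlap in 17 isolated regions, 9 with PILO above and 8 with PILO below CTRL, or 0.899% compared with 2.01% of all tested regions. Among isolated regions with 400 or more tags, 1 of 1404 passed (0.0712%), compared with 0.877% of all regions with as many tags. Among those with 129 to 400 tags, 8 of 487 passed (1.64%), compared with 1.52% of all regions with as many tags. The share of calls was thus below that of the whole table over all tested regions and at 400 or more tags, and not at 129 to 400 tags. The rest of the table served as a description, and no test was made over the members.

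The median log2 fold change in PILO versus CTRL was 0.02 over the tested isolated regions and 0.00 over all tested regions, and 55.6% and 50.6% of regions lay above 0. The median size of the log2 fold change, regardless of sign, was 0.107 in isolated regions and 0.167 in all tested regions, with median standard errors of 0.204 and 0.261. The median of the isolated regions became -0.01 without PILO replicate 4, -0.01 without CTRL replicate 1 and 0.00 without CTRL replicate 2, and it was 0.08 without PILO replicate 3. Its direction thus rested on single animals. Regions named below were picked for their small p in these same animals. Their exact two-sided permutation tests of log2(CPM + 0.25), which cannot give a p below 0.00794 in any of the 3 comparisons, describe the separation of the groups and are no independent support.

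Of the isolated regions higher in PILO, chr4:55457384-55457882 (498 bp) had 1.19, 1.57, 1.55, 1.64 and 0.981 CPM in CTRL and 3.11, 2.88, 2.47 and 2.14 CPM in PILO. Every PILO animal lay above every CTRL animal. Means were 1.39 ± 0.286 CPM (SD, n = 5) and 2.65 ± 0.429 (n = 4), a log2 fold change of 0.94 (SE 0.288, edgeR adjusted p = 0.71, exact permutation p = 0.00794). PILO + KD animals had 1.58, 2.21, 2.94, 2.10 and 2.54 CPM and overlapped with both groups. CTRL animals had 9 to 14 tags here, and PILO animals had 16 to 35.

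The region chr19:39680774-39681182 (408 bp) was also higher in PILO. It had 0.695, 1.34, 0.515, 1.14 and 0.763 CPM in CTRL, 1.92, 1.97, 2.16 and 1.89 CPM in PILO, and 1.15, 0.948, 0.452, 1.11 and 1.59 CPM in PILO + KD. All 4 PILO animals lay above all animals of the other groups. The log2 fold change was 1.14 against CTRL (SE 0.37, edgeR adjusted p = 0.778, exact permutation p = 0.0159). In PILO + KD versus PILO it was -0.91 (SE 0.363, edgeR adjusted p = 1, exact permutation p = 0.0159), which missed the cut-off. CTRL animals had 4 to 12 tags here, and PILO animals had 13 to 24.

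In the region chr4:24124761-24125437 (676 bp) the rats differed widely. It had 0.497, 1.23, 5.41, 0.506 and 1.42 CPM in CTRL, 11.2, 6.17, 2.62 and 1.89 CPM in PILO and 5.90, 0.527, 3.16, 1.33 and 6.04 CPM in PILO + KD. High and low animals occurred in every group, and the groups overlapped. The log2 fold change in PILO versus CTRL was 1.64 (SE 0.542, edgeR adjusted p = 0.795, exact permutation p = 0.0794). The region kept p below 0.01 in 12 of 19 refits, whose settings are listed near the end. It missed the cut-off in the Wald test of DESeq2, with a log2 fold change of 1.60, and without any of 6 single animals, with 1.09 without PILO replicate 2.

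Among the isolated regions lower in PILO, chr6:30373728-30374300 (572 bp) had the smallest p of any isolated region in this comparison. CTRL animals had 4.47, 3.58, 3.61, 3.67 and 3.71 CPM, PILO animals 1.33, 2.55, 2.00 and 2.14 CPM, and PILO + KD animals 4.32, 3.37, 2.03, 1.99 and 2.33 CPM. PILO lay below CTRL in all animals, and PILO + KD spanned both. Means were 3.81 ± 0.375 CPM in CTRL and 2.01 ± 0.506 in PILO, with a log2 fold change of -0.89 (SE 0.267, edgeR adjusted p = 0.692, exact permutation p = 0.00794).

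The region chr3:35040869-35041591 (722 bp) was lower in PILO than in both other groups. It had 2.88, 3.13, 3.22, 2.66 and 2.73 CPM in CTRL, 2.22, 0.986, 1.85 and 1.51 CPM in PILO, and 2.16, 3.26, 3.05, 2.21 and 3.50 CPM in PILO + KD. PILO and CTRL did not overlap, whereas the lowest PILO + KD animals lay at the level of the highest PILO animal. The log2 fold change was -0.88 in PILO versus CTRL (SE 0.282, edgeR adjusted p = 0.774, exact permutation p = 0.00794) and 0.85 in PILO + KD versus PILO (SE 0.283, edgeR adjusted p = 1, exact permutation p = 0.0397). In PILO + KD versus CTRL it was -0.03 (SE 0.241, exact permutation p = 0.667).

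The region chr7:83864683-83865413 (730 bp) lies in the window of chromosome 7 with the most isolated regions. Its levels were 3.58, 3.80, 3.22, 3.16 and 3.16 CPM in CTRL, 1.04, 2.30, 1.70 and 2.14 CPM in PILO, and 4.03, 4.53, 1.92, 1.88 and 2.65 CPM in PILO + KD. PILO lay below CTRL without overlap, with a log2 fold change of -0.87 (SE 0.292, edgeR adjusted p = 0.796, exact permutation p = 0.00794). PILO + KD animals fell both above and below CTRL.

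The remaining 3 calls in PILO versus CTRL rested on low or scattered counts, as did some of the calls above. The region of chromosome 19 had 151 summed tags, and chr4:24124761-24125437 had a coefficient of variation of 91.4%. The region chr2:203268691-203269366 had 4 to 9 tags in the animals of CTRL and 9 to 19 in those of PILO, with a log2 fold change of 1.24 (SE 0.418, edgeR adjusted p = 0.798). The region chr7:83286243-83286973, from the same window of chromosome 7, had 22, 3, 3, 21 and 17 tags in CTRL, 23, 62, 17 and 32 in PILO, and 4, 2, 18, 16 and 39 in PILO + KD. Its log2 fold change was 1.36 (SE 0.466, edgeR adjusted p = 0.809), although the groups overlapped. The region chr7:40048838-40049472 had 1.79, 1.12, 0.773, 1.27 and 3.16 CPM in CTRL and 0.888, 0.904, 0.308 and 0.63 CPM in PILO. Its log2 fold change was -1.20 (SE 0.435, edgeR adjusted p = 0.831, exact permutation p = 0.0476), and the groups overlapped in CTRL replicate 3. The regions chr2:203268691-203269366 and chr7:83286243-83286973 are described because they complete the count of 9, and they were chosen after their values were seen.

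Several of these calls in PILO versus CTRL were lost when a single animal was left out. The region of chromosome 19 missed the cut-off without CTRL replicates 1, 3 or 5 or PILO replicate 4, with a log2 fold change of 1.01 without CTRL replicate 3. For chr6:30373728-30374300 this was so without PILO replicate 2 (-0.75), for chr3:35040869-35041591 without PILO replicates 3 (-0.66) or 5 (-0.86), and for chr7:83864683-83865413 without CTRL replicates 1 or 2 or PILO replicates 2 (-0.70) or 4. The region chr4:55457384-55457882 kept p below 0.01 with each animal left out. Within the flow cell that held the most libraries, of the 6 regions named by rule, chr4:24124761-24125437 passed and the other 5 did not.

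In PILO + KD versus CTRL, a comparison that uses the same CTRL animals, 3 of the 1891 tested isolated regions passed p below 0.01, or 0.159%, compared with 0.92% of all tested regions. Of these, 1 was higher (0.5% of all tested regions) and 2 were lower (0.42%). The split by direction varied with the fit. With the size factors of DESeq2 in place of TMM, 2 passed, 1 in each direction (0.106%, compared with 0.936% of all tested regions). Without the filter on tags, 13 were higher and 4 lower (0.541%, compared with 0.946%). Within the flow cell that held the most libraries, 1 was higher and 9 were lower (0.529%, compared with 0.612%). With flow cell as a covariate, 2 were higher and none lower (0.106%, compared with 0.949%). Without PILO + KD replicate 4, 2 were higher and 1 was lower (0.159%, compared with 1.01%). The lowest adjusted p was 0.914 in edgeR, 0.891 in DESeq2 and 1 in limma-voom, so that no isolated region was below 0.05, compared with 0.00129% of all tested regions in edgeR. An unadjusted p below 0.05 was reached by 25 (1.32%), compared with 4.22% of all tested regions. Groups did not overlap in 3 isolated regions (0.159%), compared with 0.727%. Of the isolated regions with 400 or more tags, 1 of 1404 passed (0.0712%), compared with 0.599%.

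The median log2 fold change in PILO + KD versus CTRL was 0.04 over the isolated regions and 0.01 over all tested regions, and 60.5% and 51.4% of regions lay above 0. Without PILO + KD replicate 4 the median of the isolated regions was -0.05, and 38.4% lay above 0. Without PILO + KD replicate 2 it was 0.09. Within the flow cell that held the most libraries, with 2 PILO + KD animals, it was -0.17, with 23.2% above 0. The direction of this median therefore turned with the animals included.

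The region chr9:43589184-43589670 (486 bp) had the smallest p in PILO + KD versus CTRL. It had 3.08, 3.02, 3.09, 4.55 and 4.03 CPM in CTRL, 1.18, 2.79, 2.93 and 1.39 CPM in PILO, and 1.73, 1.69, 2.60, 1.22 and 2.01 CPM in PILO + KD. All CTRL animals lay above all pilocarpine-treated animals, in both diets. The log2 fold change was -0.93 in PILO + KD versus CTRL (SE 0.271, edgeR adjusted p = 0.914, exact permutation p = 0.00794) and -0.75 in PILO versus CTRL (SE 0.288, edgeR adjusted p = 0.861, exact permutation p = 0.00794).

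The region chr17:52459161-52460129 (968 bp) had higher counts, 40 to 90 tags per animal. Its levels were 8.94, 8.50, 9.01, 9.11 and 7.41 CPM in CTRL, 6.81, 6.58, 6.47 and 6.43 CPM in PILO, and 6.90, 7.58, 6.44, 4.42 and 6.15 CPM in PILO + KD. PILO did not overlap with CTRL, and PILO + KD overlapped in 1 animal. The log2 fold changes were -0.45 in PILO + KD versus CTRL (SE 0.163, edgeR adjusted p = 1, exact permutation p = 0.0159) and -0.39 in PILO versus CTRL (SE 0.174, edgeR adjusted p = 0.942, exact permutation p = 0.0159). In PILO + KD versus CTRL, the region kept p below 0.01 in 3 of 19 refits, those without CTRL replicate 5 and without PILO + KD replicates 1 or 2. Its difference fell to -0.34 on the log2 scale without PILO + KD replicate 4, the lowest animal, and to -0.32 within the flow cell that held the most libraries, and it missed the cut-off in both.

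A higher level in PILO + KD was found in chr14:29576382-29577615 (1233 bp). It had 1.39, 1.12, 2.19, 1.39 and 1.31 CPM in CTRL, 3.70, 0.658, 1.70 and 0.882 CPM in PILO, and 5.61, 1.47, 4.07, 2.65 and 3.18 CPM in PILO + KD. Of the PILO + KD animals, 4 lay above all CTRL animals and replicate 2 lay among them. The log2 fold change was 1.18 against CTRL (SE 0.365, edgeR adjusted p = 0.997, exact permutation p = 0.0159) and 1.03 against PILO (SE 0.393, edgeR adjusted p = 1, exact permutation p = 0.103). Against CTRL it missed the cut-off without PILO + KD replicate 1 (0.94), whereas chr9:43589184-43589670 kept it with each animal left out. Within the flow cell that held the most libraries both regions missed it, with 0.83 for chr14:29576382-29577615 and -0.72 for chr9:43589184-43589670.

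Next by p, and short of the cut-off, were 3 regions. In chr4:55457384-55457882, described above, PILO + KD had a log2 fold change of 0.73 against CTRL (SE 0.276, exact permutation p = 0.0159). In chr1:108109753-108110466 the means were 1.36 ± 0.465 CPM in CTRL, 1.89 ± 0.314 in PILO and 2.43 ± 0.845 in PILO + KD, with a log2 fold change of 0.84 in PILO + KD versus CTRL (SE 0.317, exact permutation p = 0.0556). In chr7:40048838-40049472, also described above, PILO + KD had 0.719, 0.527, 1.13, 0.663 and 0.848 CPM and a log2 fold change of -1.06 (SE 0.396, exact permutation p = 0.0397).

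In PILO + KD versus PILO, which sets the diet against standard feeding among pilocarpine-treated rats, 2 of the 1891 isolated regions passed p below 0.01, or 0.106%, compared with 0.351% of all tested regions. Of these, 1 was higher (0.151% of all tested regions) and 1 was lower (0.201%). Scaled by total tags alone, 1 passed, and it was higher (0.0529%, compared with 0.284% of all tested regions). Within the flow cell that held the most libraries (3 PILO and 2 PILO + KD animals), 13 passed, 3 higher and 10 lower, or 0.687%, which was above the 0.556% of all tested regions there. The lowest adjusted p was 1 in edgeR, DESeq2 and limma-voom alike. An unadjusted p below 0.05 was reached by 11 (0.582%), compared with 2.3%, and groups did not overlap in 4 (0.212%), compared with 0.746%. None of the 1404 isolated regions with 400 or more tags passed p below 0.01 in edgeR, compared with 0.236% of all regions with as many tags. Median log2 fold changes were 0.02 in isolated regions and 0.00 in all tested regions. Without PILO + KD replicate 4 the median of the isolated regions was -0.07. Within the flow cell that held the most libraries it was -0.19, with 24.6% above 0, and with flow cell as a covariate it was -0.08. The direction of this median turned with the animals included here too.

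The region that passed as higher in PILO + KD was chr3:35040869-35041591, whose values are given above. The region that passed as lower was chr4:93185542-93185959 (417 bp). It had 2.78, 1.45, 0.386, 0.506 and 1.20 CPM in CTRL, 1.04, 1.64, 2.62 and 2.27 CPM in PILO, and 0.719, 0.843, 0.791, 0.774 and 0.848 CPM in PILO + KD. PILO + KD animals lay below all PILO animals and close together, whereas CTRL animals spanned both groups. The log2 fold change was -1.22 (SE 0.437, edgeR adjusted p = 1, exact permutation p = 0.00794). The 5 PILO + KD animals had 5 to 8 tags each. The region kept p below 0.01 in 7 of 19 refits and missed it without any single PILO + KD animal, with -1.21 without replicate 4. The region of chromosome 3 kept it in 12 of 19, replicate 4 left out included, and its log2 fold change was 0.62 without PILO replicate 3.

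**Figure D5:**
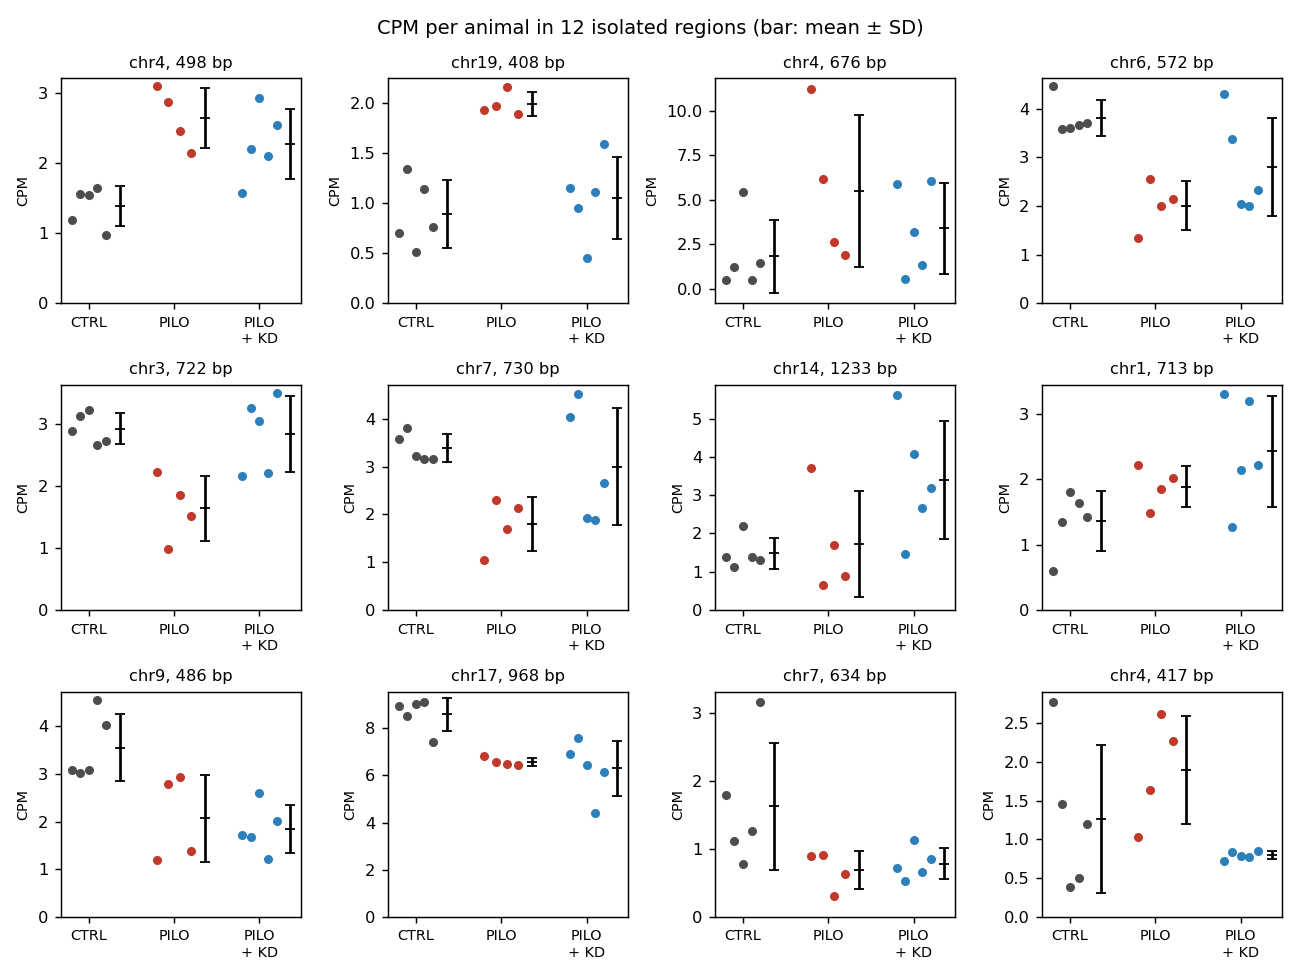
CPM of each animal (points) with mean ± SD (bars) in 12 isolated regions named for a comparison of groups, titled by chromosome and length, for CTRL (grey), PILO (red) and PILO + KD (blue). In the regions of chromosome 6 and chromosome 9, no PILO animal reached the level of the lowest CTRL animal, and in that of chromosome 19 all 4 PILO animals lay above the other 10.

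Of the 14 calls at p below 0.01 in the 3 comparisons, 12 were in isolated regions with fewer than 400 summed tags, although these were 487 of the 1891 tested. In this class, 1.64% of isolated regions passed in PILO versus CTRL (8 of 487), next to 1.52% of all 76789 tested regions with as many tags. The shares were 0.411% (2 regions) and 1.25% in PILO + KD versus CTRL, and 0.411% (2 regions) and 0.469% in PILO + KD versus PILO. The median standard error of the log2 fold change of isolated regions in PILO versus CTRL was 0.34 at 129 to 400 tags and 0.164 at 1600 tags or more.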

How the data were processed

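Methyl-Seq was measured in 14 rats. The authors captured methylated DNA with the MethylMiner kit, aligned reads of 36 bp to the rat genome RN4 (BWA), discarded duplicates, compared all pairs of samples with MACS (version 1.4.0 in the submitters' processing notes), merged the resulting regions with bedtools and counted tags with a script of their own. The deposited values are these raw counts per region and animal, with no normalization, and regions were listed because animals differed there. Other assays of the study were not analysed here.

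Groups and replicate numbers came from the labels. The number after FC in each label was read as the flow cell, and these labels do not spell out FC. The PILO + KD animal without a number in its label is called replicate 5. Libraries of the same group differed by more than counting error (chi-square statistic per degree of freedom 1.63 to 4.86 over regions). Regions were listed because pairs of these animals differed there, so that this value cannot show whether libraries were repeats of each other.

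Gaps were taken between consecutive listed regions of a chromosome. The 40 regions with a neighbour on 1 side only were not members. Regions below the 50th centile of summed tags (129) were left out of tests, as in the study's methods. Counts of 155092 regions and 14 animals were tested with edgeR 4.0.16 (quasi-likelihood) in R 4.3.3, with TMM scaling, 1 mean per group and no covariate, p below 0.01, and Benjamini-Hochberg adjustment over all tested regions. SE is the absolute log2 fold change over the square root of F. CPM uses tags in tested regions times the TMM factor, and deviations use log2(CPM + 0.25). Depth ran from 6972700 to 12391666 tags per animal. Single regions were also tested by exact two-sided permutation of log2 CPM over all splits of the animals. The test was also run on simulated counts with the fitted spread. Those counts held no differences between flow cells and no trend with distance, so that they cannot show how the test behaves under either. DESeq2 1.42.0 and limma 3.58.1 (voom) served as alternatives, beside other scalings, filters, gaps, covariates and sets of animals.

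Regions were named by rule: the 3 higher and 3 lower with the smallest p in each comparison against CTRL, the 2 higher and 2 lower in PILO + KD versus PILO, the 3 highest in CPM, the 2 longest, the 2 with the largest smaller gap, the 2 with the smallest coefficient of variation, and the 2 nearest to the limit on each side. The members, the rule and the tests were chosen with earlier results of these data known.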

Additional observations from a re-analysis of the deposited data

Results flagged for a closer look

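Of 72 sets of 4 or 5 animals (3 groups in each of the 23 named regions and for the share of tags in isolated regions), 8 held an animal that stood apart from the rest of its group. Chance gives about 1 in 20 for separate sets that were not picked by their values. Many of these regions were picked for small p or small variation, and the sets share the same animals. The count of 8 therefore cannot be set against that rate. CTRL replicate 3 was highest of its group in chr4:24124761-24125437, with 5.41 CPM and the next animal at 1.42, and in chr14:29576382-29577615, with 2.19 CPM and the next at 1.39. CTRL replicate 1 was highest in chr6:30373728-30374300, with 4.47 CPM and the next at 3.71. In the most isolated region, chr2:67221630-67222351, CTRL replicate 2 was lowest with 2.24 CPM (next 3.05) and PILO + KD replicate 2 highest with 4.32 CPM (next 3.28). PILO + KD replicate 4 was highest in chr1:74834538-74835699, with 8.85 CPM and the next at 5.20.

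Just outside the limit, PILO replicate 2 was highest in chr11:9453625-9454665, with 16.0 CPM and the next at 12.99. PILO + KD replicate 3 had 0 tags and thus 0 CPM in chr3:3185343-3185852, where the next animal of its group had 0.632 CPM. This region held 77 summed tags, below the filter, and PILO replicate 2 had 0 tags there too. The causes were not tested.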

How the results depend on the processing

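Counts of isolated regions with p below 0.01 were small. Of 29 alternatives, 10 moved the count by more than 1.5 times in PILO versus CTRL, 15 in PILO + KD versus CTRL and 21 in PILO + KD versus PILO. Alternatives for the gap and the filter also change how many regions are tested. In the same order, the share that passed was above that of all tested regions in 0, 0 and 1 of 30 settings, the main fit included. These settings are not separate tests, since they share animals or the main fit. Some could hardly come out above, such as the gap of 100000 bp with 16 tested regions. For PILO versus CTRL (9), PILO + KD versus CTRL (3) and PILO + KD versus PILO (2) in turn, a gap of 20000 bp gave 19, 12 and 4 of 4797 tested regions (0.396, 0.25 and 0.0834%). Gaps counted to tested regions only gave 48, 40 and 14 of 7300 (0.658, 0.548 and 0.192%). All tested regions had 1.19, 0.92 and 0.351% in both. No filter gave 17, 17 and 15 of 3142 (0.541, 0.541 and 0.477%, compared with 1.17, 0.946 and 0.536% of all regions). At least 10 tags in every animal gave 1, 0 and 1 of 1556 (0.0643, 0 and 0.0643%, compared with 1.02, 0.675 and 0.253%). With a gap of 50000 bp (387 tested) or 100000 bp (16 tested), edgeR gave 0 in each comparison. At 50000 bp, 5, 5 and 1 had an unadjusted p below 0.05. An adjusted p below 0.05 was reached by 0 in each. For PILO + KD versus CTRL, the fit of only these groups' animals gave 5 and the largest flow cell alone gave 10. For PILO + KD versus PILO, total tags only gave 1, limma-voom 4, the largest flow cell alone 13, and flow cell as a covariate 6, a fit in which PILO + KD replicate 4, alone on its flow cell, carries no weight in the contrast. DESeq2 gave 6, 2 and 2.

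Leaving out each animal gave 5 to 16, 2 to 7 and 0 to 6 regions. PILO versus CTRL moved most without PILO replicate 3 (16) and without CTRL replicates 1 or 2 (5 each). PILO + KD versus CTRL moved without CTRL replicates 1, 2 and 3 (6, 6 and 7) and without PILO + KD replicates 1, 2 and 3 (5, 7 and 6). PILO + KD versus PILO moved without PILO + KD replicate 4 (6), replicate 3 (0, with 14 at an unadjusted p below 0.05) and replicate 2 (1), without PILO replicate 2 (4) and PILO replicates 3, 4 and 5 (1 each), and without CTRL replicates 2 and 5 (1 each).

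Same-numbered animals are different rats and did not deviate together in every pair (correlations across regions from -0.286 to 0.284), so the numbers were not read as pairs. The replicate block gave 9, 2 and 4 regions.

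The percent of tags in isolated regions in CTRL, PILO and PILO + KD was 3.81, 3.86 and 3.84 with a gap of 20000 bp, 0.325, 0.332 and 0.329 with 50000 bp, 0.012, 0.0121 and 0.0119 with 100000 bp, and 1.74, 1.77 and 1.77 with tags on chromosomes 1 to 20 as the denominator. Leaving out each animal gave 1.52 to 1.57, 1.53 to 1.60 and 1.49 to 1.60%. Of 304 refitted values for the 16 named pairs of region and comparison, 0 changed direction and 228 stayed on their side of the cut-off. The median log2 fold changes of isolated regions, a quantity added after the data were seen, ran from -0.01 to 0.08, from -0.05 to 0.09 and from -0.07 to 0.07 with each animal left out. In the largest flow cell alone they were 0.02, -0.17 and -0.19, and with flow cell as a covariate 0.03, -0.06 and -0.08. Precision was lowest for tested regions with few tags, with a median SE in PILO versus CTRL of 0.34 at 129 to 400 tags.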

Other observations

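In 43 isolated regions, 25 of them tested, an animal had at most 1 tag while another had 20 or more, a rule set after the values were seen. In chr20:34490370-34491062 (692 bp), CTRL replicate 5 had 0 tags and the other 13 animals had 18 to 76. In chr7:84052863-84053405, PILO + KD replicate 1 had 1 tag and the others 7 to 31. In chr6:138980578-138981240, CTRL replicates 3 and 5 had 0 tags, PILO + KD replicate 4 had 50 and the other animals had 4 to 27. In chr15:67149090-67149736, PILO replicate 4 had 1 tag and the others 4 to 33, and in chr1:221737906-221738527, PILO + KD replicate 3 had 1 tag and the others 7 to 28.

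On chromosome X, which the definition leaves out, 541 of 6735 listed regions met the same rule on gaps.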
